A study of Mus musculus with 32 samples.

Results

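Capillary endothelial cells of epididymal fat were selected from single-cell RNA counts, and 1219 of 22703 barcodes were members. A member had at least 300 genes, at most 10% mitochondrial UMIs (unique molecular identifiers, each standing for 1 captured RNA molecule), no UMI of the leukocyte gene Ptprc, and at least 3 of 8 endothelial genes (Pecam1, Cdh5, Flt1, Kdr, Egfl7, Cldn5, Emcn and Gpihbp1). It also had at least 2 UMIs of Gpihbp1, fewer than 4 summed UMIs of the venous genes Ackr1, Selp and Vwf, fewer than 4 of the arterial genes Gja5, Gja4, Hey1, Sema3g and Fbln5, and fewer than 3 of 5 adipocyte genes (Adipoq, Plin1, Car3, Retn and Cidec). These genes chose the cells, so their levels are a description and support nothing. The library of high fat diet mice labelled CD169-DTR gave 11 members, high fat diet WT gave 411, normal diet CD169-DTR gave 273 and normal diet WT gave 524.

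The cells were the stromal vascular fraction, what remains of fat tissue once the mature adipocytes are removed, of epididymal fat from C57BL/6 mice. Diets, high fat or normal, lasted 16 weeks and were followed by diphtheria toxin for 7 days in all 4 groups, the WT controls included. The CD169-DTR label names a receptor for that toxin placed under Siglec1, the gene of the macrophage lectin CD169, and the stated aim was to remove resident macrophages. Leukocytes (CD45+) and other cells (CD45-) were sorted apart, with many F4/80hi cells and Ly6Chi monocytes left out by the gates, and were pooled in equal parts. Each group was 1 library, and neither the number nor the age of the mice behind it is given in the sources used here. No difference between groups could therefore be tested, and every interval is a 95% interval for counting error only, which leaves out the variation between mice.

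Capillary endothelium of fat brings fatty acids to adipocytes. Gpihbp1 holds lipoprotein lipase at the capillary wall, the surface protein Cd36 takes up the released fatty acids, and Fabp4 and Fabp5 bind them inside the cell. Endothelial cells also answer interferons. GAS and ISRE elements are short promoter sequences known from interferon-inducible genes, and the induced genes include the p47 and guanylate-binding GTPases, the chemokines Cxcl9 and Cxcl10, and the Ifit genes.

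Interferon-inducible genes are described at length below, so the promoters of 4 of them are shown. Each line gives the 250 bases before the RefSeq start site in GRCm38.p6, 5′ to 3′ on the strand of the gene, with matches in capitals to the ISRE letters, searched as GAAA, any 2 bases and GAAA, or to the GAS letters TTCNNNGAA, both on either strand. Irgm1, an immunity-related p47 GTPase, lies on the minus strand at chr11:48871421-48871670, Irf1, an interferon regulatory transcription factor, on the plus strand at chr11:53769764-53770013, Cxcl10, a chemokine for T cells, on the minus strand at chr5:92348890-92349139, and Ifit1, an RNA-binding antiviral protein, on the plus strand at chr19:34640639-34640888. For Irf1 the first of 2 listed start sites was used. Of the 8 genes looked up, which were these and the markers Gpihbp1, Cldn5, Kdr and Aqp1, 7 matched.
Irgm1: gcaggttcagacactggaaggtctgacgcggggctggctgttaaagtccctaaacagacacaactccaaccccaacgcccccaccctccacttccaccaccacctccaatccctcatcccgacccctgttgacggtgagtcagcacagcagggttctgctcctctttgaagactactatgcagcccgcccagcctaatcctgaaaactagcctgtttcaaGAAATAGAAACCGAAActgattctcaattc
Irf1: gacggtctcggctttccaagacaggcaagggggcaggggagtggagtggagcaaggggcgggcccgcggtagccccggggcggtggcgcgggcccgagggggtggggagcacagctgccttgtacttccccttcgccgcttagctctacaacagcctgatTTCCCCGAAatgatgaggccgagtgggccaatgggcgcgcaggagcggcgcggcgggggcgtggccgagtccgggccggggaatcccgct
Cxcl10: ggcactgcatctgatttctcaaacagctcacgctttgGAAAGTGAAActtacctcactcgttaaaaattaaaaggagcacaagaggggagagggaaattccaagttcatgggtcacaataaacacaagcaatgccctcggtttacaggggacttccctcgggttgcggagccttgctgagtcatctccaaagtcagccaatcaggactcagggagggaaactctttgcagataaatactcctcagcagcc
Ifit1: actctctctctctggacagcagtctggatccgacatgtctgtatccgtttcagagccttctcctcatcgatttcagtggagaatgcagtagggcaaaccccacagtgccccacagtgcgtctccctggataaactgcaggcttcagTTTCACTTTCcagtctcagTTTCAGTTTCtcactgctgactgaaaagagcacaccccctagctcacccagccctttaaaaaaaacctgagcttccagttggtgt
The ISRE letters occurred at 2 overlapping places in Irgm1, at positions -30 to -21 and -24 to -15 from the start site. In Ifit1 they occurred at 2 places on the opposite strand, at -104 to -95 and at -85 to -76, and in Cxcl10 they occurred once, at -213 to -204. The GAS letters occurred once, in Irf1, at -90 to -82. Over the same 250-base windows, ISRE letters were held by 9 of the 15 matched genes of the interferon-gamma inducible list (60%) and by 9 of the 22 matched genes of the type I interferon list (40.9%), against 3.04% of all 27025 genes in the table. The shares for GAS letters were 7 of 15 (46.7%), 4 of 22 (18.2%) and 7.18% of all genes. A match of letters is a description and not a shown binding site.

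The libraries held 4014 to 6696 barcodes and 33390225 to 64766718 UMIs. Over all cells that passed the limits on genes and mitochondrial UMIs, Siglec1 had 3.05 CPM (UMIs per 1000000 summed UMIs) in high fat DTR and 1.09 in high fat WT, and 3.45 in normal diet DTR and 0.136 in normal diet WT. Its direction goes against the labels, and it had no UMI in any capillary cell. Groups are therefore named by their labels throughout, and which library is which rests on the order of the deposited aggregation list. Between libraries 298 barcode sequences were shared, 5 of them by capillary cells. The median capillary cell had 3262 UMIs in high fat DTR, 3613 in high fat WT, 2918 in normal diet DTR and 3304 in normal diet WT, so the libraries were similar in depth for these cells.

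Capillary cells were nearly missing from the high fat DTR library. They made up 0.331% (0.165 to 0.591, exact Clopper-Pearson interval) of its 3326 Ptprc-negative cells, against 15.9% (14.5 to 17.3) of 2589 in high fat WT, which is 48.0-fold lower. On the normal diet they made up 15.4% (13.7 to 17.1) of 1777 Ptprc-negative cells in the DTR library and 20.3% (18.8 to 21.9) of 2581 in the WT library, which is 1.32-fold lower. Within one genotype label, high fat was 46.5-fold lower than normal diet in DTR and 1.28-fold lower in WT. The low number in high fat DTR extended to all endothelial-gated cells, which met the first sentence of the rule. They numbered 20 there, against 533 in high fat WT, and 462 in normal diet DTR, against 971 in normal diet WT. Their shares of Ptprc-negative cells were 0.601%, 20.6%, 26.0% and 37.6% in that order. By this share, normal diet DTR was 1.45-fold lower than normal diet WT, and high fat WT was 1.83-fold lower than normal diet WT. The limit on adipocyte genes acts on the capillary shares but not on these. Median depth of Ptprc-negative cells was 11552.5 UMIs in high fat DTR, against 9223 in high fat WT, but this median depends on the mix of cells. Endothelial-gated cells had medians of 3664.5 and 3705 UMIs and fibroblast-gated cells 12857.5 and 11207, in the same library order. A library with few endothelial cells therefore has a higher median, and the value does not bear on why they were few. Shares are of the sorted cells, and an effect of the sort and a difference in the tissue cannot be told apart.

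**Figure D1:**
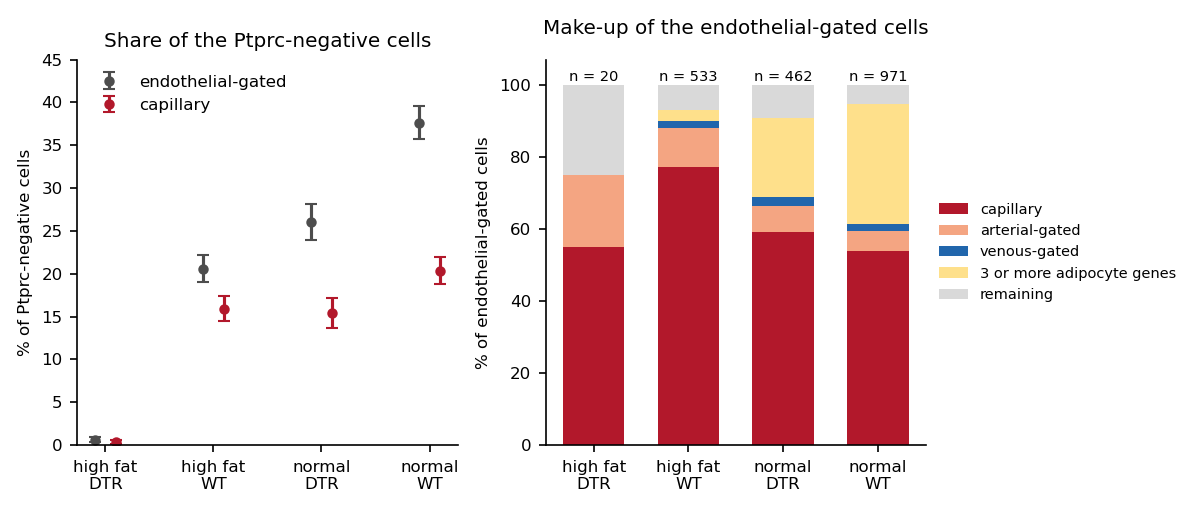
Left, endothelial-gated cells (grey) and capillary cells (red) as a percentage of Ptprc-negative cells in each library, with exact 95% intervals. Right, the make-up of the endothelial-gated cells as stacked percentages, with their number above each bar; the high fat DTR bar rests on 20 cells, and cells with 3 or more adipocyte genes (yellow) are 33.5% in normal diet WT.

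Among endothelial-gated cells the capillary share was 55% (31.5 to 76.9) in high fat DTR, 77.1% (73.3 to 80.6) in high fat WT, 59.1% (54.5 to 63.6) in normal diet DTR and 54.0% (50.8 to 57.1) in normal diet WT. The limit on adipocyte genes took different shares of the libraries. Endothelial-gated cells with 3 or more adipocyte genes were 0 of 20 in high fat DTR, which allows up to 15%, and 3.00% in high fat WT, 21.9% in normal diet DTR and 33.5% in normal diet WT. With these cells left out of the denominator, the capillary share was 55%, 79.5%, 75.6% and 81.1% in the same library order. With the limit lifted, it was 77.7% in normal diet DTR and 83.3% in normal diet WT. Arterial-gated cells numbered 4, 58, 34 and 52, and venous-gated cells 0, 11, 11 and 19, in that library order.

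Of the 9 capillary markers, 6 were outside the rule, and their levels were not used to choose the cells. All 6 had UMIs in the capillary cells of every library, and their summed level was 5068 CPM in high fat DTR, 6766 in high fat WT, 8639 in normal diet DTR and 8096 in normal diet WT. Among them, Rgcc, a cell cycle regulator, had 1404, 2028, 2500 and 2347 CPM in that library order, and Cd300lg, a capillary surface receptor, had 1076, 1325, 1213 and 1150 CPM. Aqp1, the water channel of capillaries, had 1550 CPM (1238 to 1916) in high fat DTR and 1741 (1679 to 1804) in high fat WT, and 3680 (3553 to 3810) in normal diet DTR and 2716 (2644 to 2790) in normal diet WT. Its level was lower in both high fat libraries than in both normal diet libraries, and the counting intervals of the 2 diets did not overlap. The high fat DTR level rests on 11 cells, and its interval leaves out the spread between them. Immune cells of the normal diet WT library had 3.65 CPM of Aqp1. That value does not separate capillary cells from arterial-gated or venous-gated ones. Aqp1, Rgcc and Cd300lg were not among the genes with the highest smallest ratio of capillary over those classes, described below.

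At the edge of the rule, 2, 23, 16 and 24 members had exactly 2 UMIs of Gpihbp1 in high fat DTR, high fat WT, normal diet DTR and normal diet WT, and 1, 18, 22 and 29 cells that met every other criterion had 1 UMI and were left out. The median member had 14 Gpihbp1 UMIs in high fat DTR, 16 in high fat WT, 10 in normal diet DTR and 11 in normal diet WT. The 11 high fat DTR cells were a mixed set: 3 of them carried 2 or more fibroblast markers, 2 carried 2 or more lymphatic markers, with 78 lymphatic UMIs in all, and 1 cell carried 2 or more immune markers, while 150 immune-marker UMIs were counted over the 11. At under 50 cells that library entered no gene comparison, and its values stand beside the others as a description.

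In capillary cells of normal diet mice, the library labelled DTR had higher Lrg1, Inhbb, Csf2rb2, Irx3 and Tmem252 and lower Timp4, Irgm1, Irf1, Cyp1a1 and Igfbp3 than the WT library. Of 6048 genes measured, with at least 50 UMIs over both libraries, 80 were at least 2-fold higher (1.32%) and 134 at least 2-fold lower (2.22%), together 3.54%, and the median log2 ratio over all of them was 0.04. Lrg1 (ENSMUSG00000037095, chr17:56119678-56122001, minus strand, GRCm38) encodes a secreted glycoprotein that modulates TGF-beta signalling in endothelium. In the DTR library 330 UMIs were counted, which is 382 CPM (342 to 426), against 103 UMIs or 52.6 CPM (43.0 to 63.8) in the WT library. It was 7.26-fold higher, a log2 ratio of 2.86 (2.54 to 3.19), and no single cell held more than 6.36% of its DTR UMIs or 19.4% of its WT UMIs. The high fat DTR library had 26 Lrg1 UMIs in 5 of its 11 cells, 474 CPM (310 to 695), against 60.6 CPM (49.6 to 73.4) in high fat WT. Both libraries labelled DTR were thus above both labelled WT, with no overlap of counting intervals. High fat DTR rests on 11 cells, however, and 1 cell held 50% of the 26 UMIs. Its counting interval leaves out that uneven spread over cells and is too narrow. Lrg1 is also known from venules and stands in the venous marker list. The other 4 venous markers summed to 117 CPM in normal diet DTR and 60.8 CPM in normal diet WT, and their part in the Lrg1 difference was not tested. Of them, Ackr1, Selp and Vwf were limited by the rule, so this sum is in part set by it. Only Nr2f2 was outside the rule, with a log2 ratio of 0.77 for normal diet DTR over WT and a range of 0.07 to 1.09 over the alternatives.

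Inhbb, the beta-B subunit of activin and inhibin, had 219 CPM (189 to 252) in the normal diet DTR library, against 57.2 (47.1 to 68.9) in WT, a log2 ratio of 1.94 (1.59 to 2.29). On the high fat diet it had 11 UMIs in DTR, a level of 201 CPM (100 to 359), and 93.6 CPM (79.7 to 109) in WT. Csf2rb2, a mouse receptor subunit for interleukin 3, had 136 CPM (112 to 162) in DTR and 36.3 (28.3 to 45.8) in WT, a log2 ratio of 1.90 (1.46 to 2.35). Its near-identical neighbour Csf2rb, the shared beta subunit of the interleukin 3, interleukin 5 and GM-CSF receptors, had 616 CPM in DTR and 289 CPM in WT, a log2 ratio of 1.09 (0.92 to 1.27), and reads of the pair can be assigned to either gene. Irx3, a homeobox transcription factor, had 247 CPM (215 to 282) in DTR and 81.8 (69.6 to 95.5) in WT, and Tmem252, a transmembrane protein, had 441 (398 to 488) and 152 (135 to 171). For all of these the intervals of the normal diet libraries stood apart.

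Timp4 (ENSMUSG00000030317, chr6:115241892-115252205, minus strand), an inhibitor of matrix metalloproteinases, was 3.71-fold lower in the normal diet DTR library, at 229 CPM (199 to 264), against 852 (812 to 894) in WT, a log2 ratio of -1.89 (-2.11 to -1.68). It had 237 CPM (126 to 405) in high fat DTR and 315 (289 to 343) in high fat WT, so the normal diet WT library was the high one of the 4. Cyp1a1, a target of the aryl hydrocarbon receptor, had 3 UMIs in normal diet DTR, against 50 in normal diet WT, and none in either high fat library. A gene without UMIs can have up to 1.73 CPM in high fat WT but up to 54.7 CPM in high fat DTR. The high fat DTR count therefore cannot show a low Cyp1a1 level. Igfbp3, which binds insulin-like growth factors, had 8 UMIs in normal diet DTR and 82 in normal diet WT, a log2 ratio of -2.18 (-3.44 to -1.13). Hmox1, the haem-degrading enzyme, had 258 CPM (226 to 295) in DTR and 540 (508 to 574) in WT, a log2 ratio of -1.06 (-1.28 to -0.85) that passed under 2-fold in cells with no adipocyte gene (-0.79). Rbp7, a retinol-binding protein of fat capillaries, had 334 CPM (296 to 374) in DTR and 641 (606 to 678) in WT, just short of 2-fold, and 1130 (867 to 1449) in high fat DTR and 1057 (1009 to 1106) in high fat WT.

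**Figure D2:**
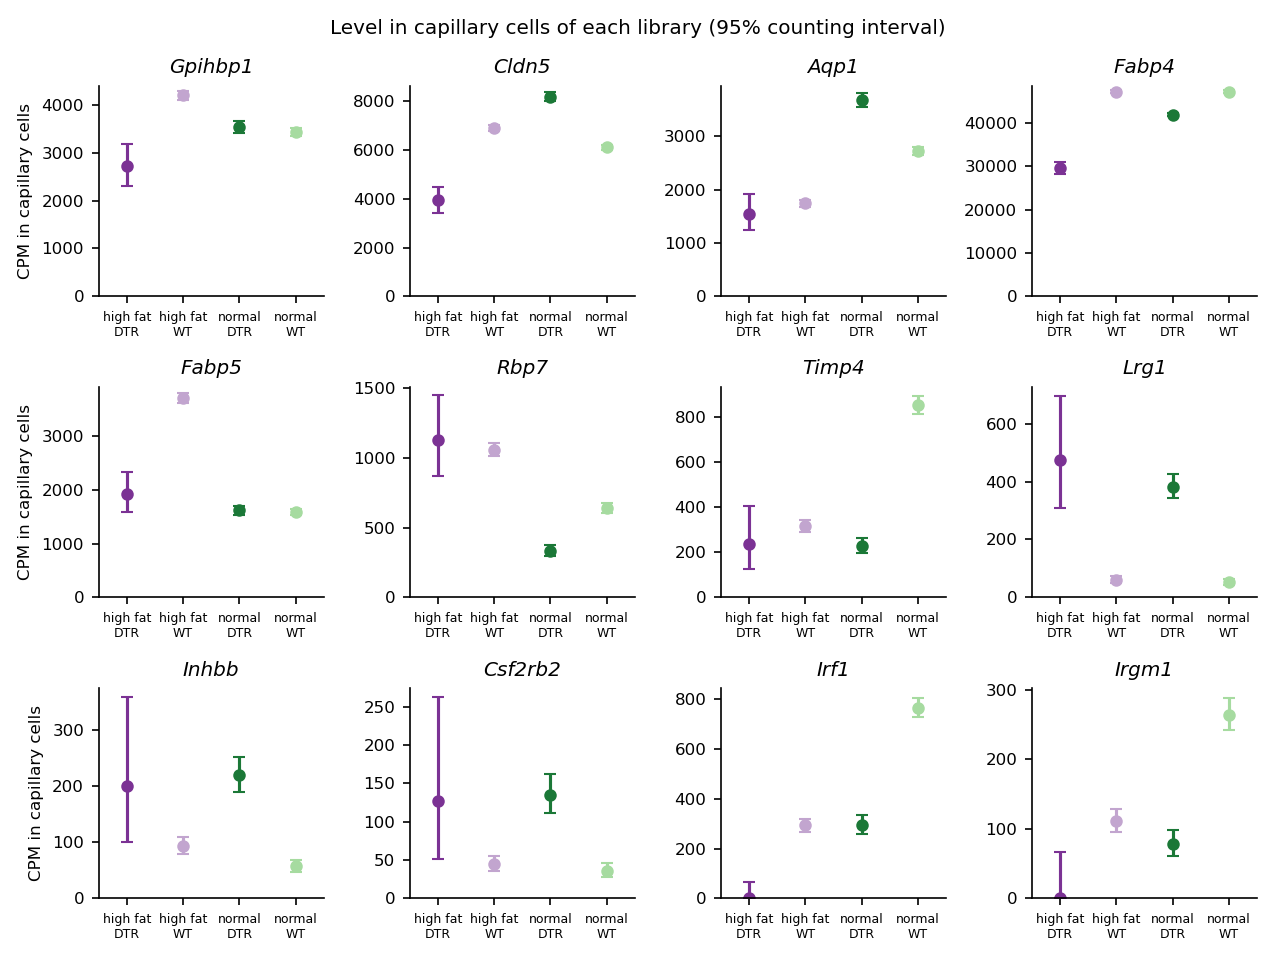
Level of 12 genes in capillary cells, in CPM, in the high fat DTR, high fat WT, normal diet DTR and normal diet WT libraries; points are the summed level of 1 library and bars its exact 95% Poisson interval, on axes that start at 0. Lrg1 is high in both DTR libraries, of which high fat DTR rests on 11 cells. Fabp5 stands out in high fat WT at 3710 CPM, and Timp4, Irf1 and Irgm1 stand out in normal diet WT.

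Genes known from other cell types were also among the most different and are given apart. Cd79a and Ighm of B cells had 0 and 17 UMIs in capillary cells of normal diet DTR, against 64 and 239 in normal diet WT. All 4 measured genes of the MHC class II list were at least 2-fold lower, against 2.22% of all genes, with a median log2 ratio of -1.65. Whether the class II transcripts came from the capillary cells or from other cells was not tested. The immune markers summed to 44.0 CPM in DTR and 110 CPM in WT, with Cd3e at 0 in both and Ptprc at 0 because the rule required it. All 5 measured pericyte markers were at least 2-fold lower, against 2.22% of all genes, with a sum of 154 CPM in DTR and 406 CPM in WT. The part of these transcripts in the other differences was not tested beyond the value without such cells. Haemoglobin genes summed to 11824 CPM in DTR and 25692 in WT, and fibroblast markers to 660 and 1146 CPM. Without the cells that held several markers of another type (24 of 273 in DTR and 88 of 524 in WT), 76 genes were at least 2-fold higher and 78 lower, an alternative chosen after the data were seen. Fewer cells can leave fewer genes measured, and the share was not computed for this set. In that set Lrg1 had a log2 ratio of 2.50, Inhbb 1.74, Timp4 -1.96 and Irgm1 -1.77.

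In WT mice, capillary cells of the high fat library had higher Fabp5, Pgf, Gdf15, Ubd and Angptl4 and lower interferon-inducible genes, Timp4, Cd200, Cyp1a1 and Aqp1 than those of the normal diet library. Of 6788 genes measured, 72 were at least 2-fold higher (1.06%) and 112 at least 2-fold lower (1.65%), together 2.71%, with a median log2 ratio of 0.00 over all. This comparison shares the normal diet WT library with the one above, so a level particular to that library enters both. Fabp5 (ENSMUSG00000027533, chr3:10012548-10016607, plus strand) had 3710 CPM (3620 to 3802) in high fat WT, against 1591 (1536 to 1648) in normal diet WT, a log2 ratio of 1.22 (1.16 to 1.28), with 1933 CPM (1582 to 2337) in high fat DTR and 1619 (1535 to 1706) in normal diet DTR. Its relative Fabp4 had 47237 CPM in high fat WT and 47222 in normal diet WT, a log2 ratio of 0.00 (-0.01 to 0.01). Angptl4, an inhibitor of lipoprotein lipase, had 1149 CPM (883 to 1470) in high fat DTR, 851 (808 to 896) in high fat WT, 525 (477 to 575) in normal diet DTR and 478 (448 to 510) in normal diet WT. The high fat libraries were both above the normal diet ones, at a WT log2 ratio of 0.83 (0.71 to 0.95), short of 2-fold. The high fat DTR level rests on 11 cells, and its interval leaves out the spread between them.

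Over the 18 measured genes of the lipid uptake list, 1 was at least 2-fold higher in high fat WT (Fabp5) and none lower, against 1.06% and 1.65% of all genes, with a median log2 ratio of 0.04. In the normal diet genotype comparison none was higher and 1 lower (Acsl3, an acyl-CoA synthetase, with 9 UMIs in DTR and 47 in WT), against 1.32% and 2.22% of all genes, with a median of -0.05. Acsl3 was under 2-fold, at a log2 ratio of -0.78, with no limit on adipocyte genes. Cd36 had 2968 CPM in high fat WT and 2832 in normal diet WT, a log2 ratio of 0.07 (0.01 to 0.12). Plin2, a lipid droplet coat protein, had 1383 CPM (1306 to 1464) in normal diet DTR, against 845 (805 to 887) in normal diet WT, and 1254 (1202 to 1308) in high fat WT. Most lipid-handling genes were therefore within 2-fold between libraries.

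Pgf, placental growth factor and a ligand of Flt1, had 304 UMIs or 176 CPM (156 to 196) in high fat WT, against 68 UMIs or 34.8 CPM (27.0 to 44.1) in normal diet WT, a log2 ratio of 2.34 (1.95 to 2.74). The ratio came to 1.24 with no limit on adipocyte genes. These UMIs came from 42 and 15 cells, and the single richest cell held 8.22% in high fat and 36.8% in normal diet. Gdf15, a stress-induced cytokine, had 220 CPM (198 to 243) in high fat WT and 48.0 (38.8 to 58.8) in normal diet WT. It was also at least 2-fold higher in normal diet DTR, at 139 CPM (115 to 166). Its log2 ratio there of 1.53, however, came to 0.36 in cells with no adipocyte gene and to 0.93 after thinning to 3000 UMIs. Thinning also left out the cells with fewer UMIs. Ubd, a ubiquitin-like protein induced by cytokines, had 124 CPM in high fat WT and 39.9 CPM in normal diet WT. Cd200, a ligand that restrains myeloid cells, had 137 CPM (120 to 155) in high fat WT, against 349 (323 to 376) in normal diet WT. Timp4 was 2.70-fold lower in high fat WT and Aqp1 1.56-fold lower. Cyp1a1 had 0 UMIs in high fat WT, against 50 in normal diet WT; with a floor of 3 UMIs per library, the high fat level was at least 14.7-fold lower.

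Again several of the most different genes are known from other cells. Of the 5 measured pericyte markers, 4 were at least 2-fold lower in high fat WT, against 1.65% of all genes. Mgp, Col3a1, Timp1, C4b, Ctsk, Apod, Col6a5 and Osr2 were 2-fold or more higher in high fat WT, and fibroblast markers summed to 1969 CPM there, against 1146 in normal diet WT. One cell held 92.9% of the Apod UMIs in high fat WT, the Col3a1 ratio of 1.87 came to 0.91 without called doublets, and the Mgp ratio of 3.06 came to 1.23 after thinning. Cfd, the adipocyte serine protease adipsin, had 26.6 CPM (19.4 to 35.4) in high fat WT and 523 (492 to 556) in normal diet WT, while the 5 adipocyte genes of the rule summed to 143 and 918 CPM in capillary cells. Vim, of fibroblasts and endothelium, had 1542 CPM in high fat WT and 748 CPM in normal diet WT, a ratio of 1.04 that came to 0.61 in cells with no adipocyte gene. Without cells holding several markers of another type (82 of 411 in high fat WT and 88 of 524 in normal diet WT), 54 genes were at least 2-fold higher and 81 lower, with no share computed for this set. Fabp5 had a log2 ratio of 1.27 there, Pgf 2.24 and Cd200 -1.26.

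Interferon-gamma inducible genes were lower in high fat WT than in normal diet WT. All 18 measured members had a log2 ratio below 0, 10 were at least 2-fold lower, and the median was -1.09, against 1.65% of all genes at 2-fold lower and a median of 0.00. Irf1 had 293 CPM (268 to 319) in high fat WT, against 765 (727 to 805) in normal diet WT, a log2 ratio of -1.39 (-1.53 to -1.24). Irgm1 had 111 CPM (95.8 to 128) and 264 (242 to 288) in that order, and Irgm2, a related GTPase, had 17.9 (12.2 to 25.4) and 59.3 (49.0 to 71.1). Cxcl10 had 64.1 CPM (52.7 to 77.2) in high fat WT and 294 (270 to 319) in normal diet WT, and Cxcl9, its relative, had 387 (358 to 417) and 711 (675 to 750). Of the type I interferon list 26 members were measured, 7 were at least 2-fold lower and none 2-fold higher, with a median of -0.65, which came to -0.32 in cells with no adipocyte gene. Isg15, a ubiquitin-like protein, had 303 CPM (278 to 330) in high fat WT and 775 (736 to 815) in normal diet WT. Ifit1 had 38.1 CPM (29.5 to 48.5) in high fat WT and 174 (156 to 193) in normal diet WT, but its log2 ratio of -2.19 came to -0.10 in cells with no adipocyte gene, and 1 cell held 60.3% of the Ifit3 UMIs of normal diet WT. The Ifit3 ratio of -2.00 came to -0.60 without cells holding markers of another type.

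On the normal diet the medians of the 2 interferon lists had opposite signs for DTR over WT. Of the interferon-gamma inducible list 18 were measured, 13 were below and 5 above a log2 ratio of 0, and the median was -0.71. At least 2-fold lower in DTR were 3 (Irgm1, Irf1 and Gbp6, a guanylate-binding protein), against 2.22% of all genes, and none was 2-fold higher. Gbp6 had 10 UMIs in DTR and 51 in WT, and its log2 ratio of -1.17 came to -0.75 with venous and arterial sums under 2. Irf1 had 295 CPM (260 to 334) in DTR, against 765 in WT, and Irgm1 had 77.6 (60.1 to 98.6), against 264. Tgtp1 and Tgtp2, near-identical GTPase genes outside the list, had 13.9 and 16.2 CPM in DTR, against 37.8 and 46.0 CPM in WT. Cells with no adipocyte gene were 45.4% of capillary cells in normal diet DTR and 21.6% in normal diet WT. Over these cells alone the list median came to -0.10, while Irf1 and Irgm1 had log2 ratios of -1.77 and -1.56 there. The type I interferon list had 27 measured, 2 at least 2-fold higher (Ifit2 and Ifi44, both interferon-induced antiviral genes), against 1.32% of all genes, none 2-fold lower and a median of 0.31, which came to 0.52 in cells with no adipocyte gene. Ifit2 had 74.1 CPM (57.1 to 94.7) in DTR and 25.0 CPM (18.5 to 33.1) in WT, and Irf7, a transcription factor for type I interferon genes, had 162 (136 to 191) and 98.1 (84.7 to 113), a ratio of 0.72 that passed 2-fold, at 1.38, in cells with no adipocyte gene. In high fat DTR, with 54850 UMIs in all, Irf1, Irgm1, Cxcl9 and Cxcl10 had no UMI, and a count of 0 there allows up to 54.7 CPM.

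**Figure D3:**
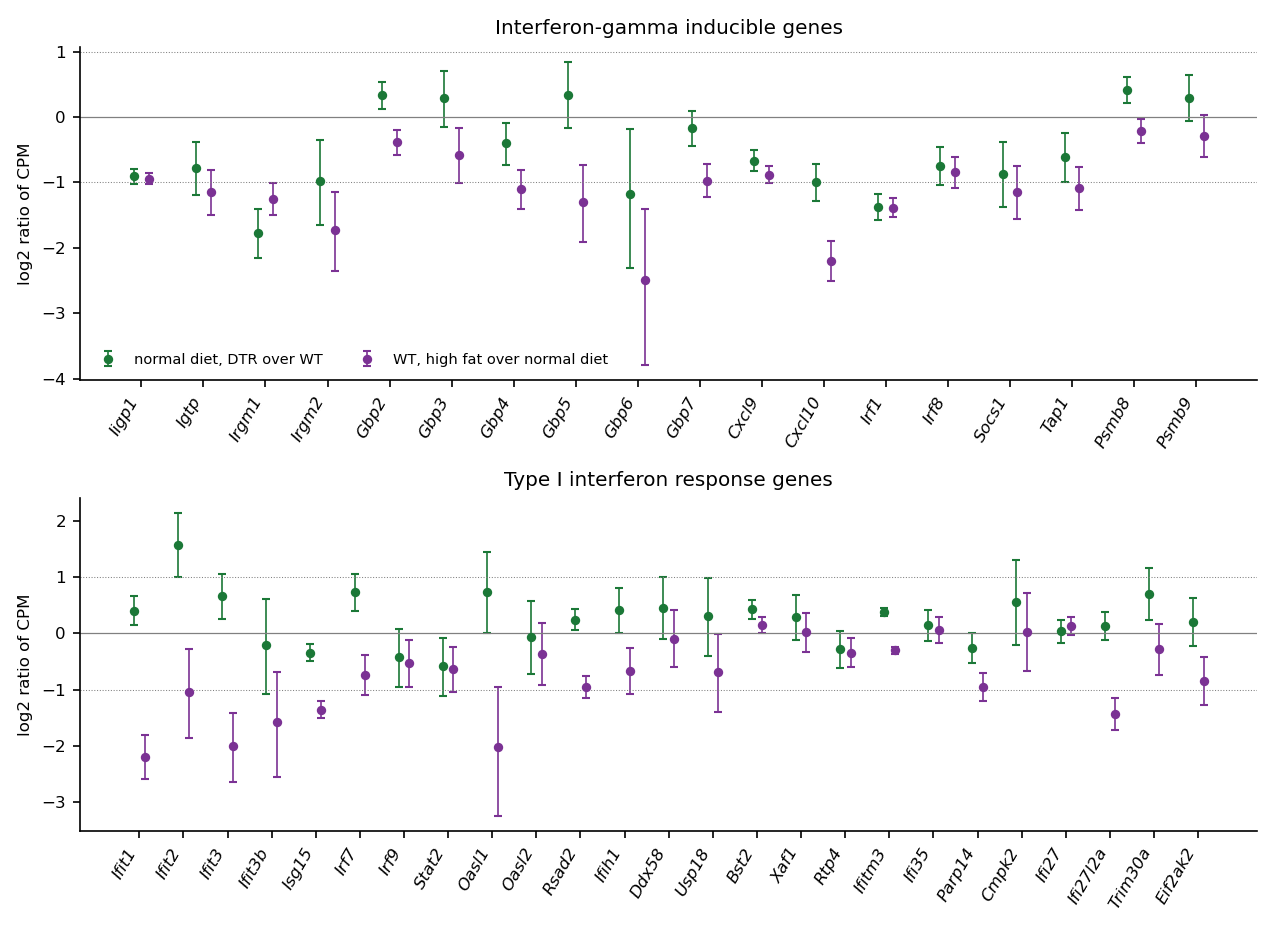
Log2 ratios of the measured interferon-gamma inducible genes (top) and of the type I interferon response genes measured in both comparisons, 1 gene left out (bottom) in capillary cells, DTR over WT on the normal diet (green) and high fat over normal diet in WT (purple), with 95% counting intervals and dotted lines at 2-fold. All 18 top genes lie below 0 for diet, while many bottom genes lie above 0 for genotype and below 0 for diet; both comparisons share the normal diet WT library.

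The remaining lists were mostly within 2-fold. MHC class I presentation had 14 measured genes with a median log2 ratio of 0.36 for normal diet DTR over WT and -0.14 for WT high fat over normal diet. H2-K1, a classical class I heavy chain, had 3484 CPM (3361 to 3611) in normal diet DTR and 2454 (2385 to 2525) in normal diet WT. Leukocyte adhesion had 10 measured genes for genotype, with a median of 0.35. Of these, 2 were at least 2-fold higher, against 1.32% of all genes, and they were Lrg1 and the chemokine Cx3cl1 (29 UMIs in DTR and 26 in WT). The adhesion molecules Vcam1 and Sele had too few UMIs to be measured. Cd34, a sialomucin ligand for selectins, had 423 CPM (381 to 468) in normal diet DTR and 222 (202 to 244) in normal diet WT, and 403 (374 to 434) in high fat WT. Plvap, the protein of capillary diaphragms, had 91.5 CPM (72.4 to 114) in normal diet DTR and 46.5 (37.4 to 57.1) in normal diet WT.

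Signalling and barrier genes had medians near 0. The list of VEGF, Notch and angiopoietin signalling had medians of 0.09 for genotype and 0.12 for diet, with 18 measured in each, and Pgf was the 1 gene past 2-fold. Dll4, a Notch ligand, had 93 UMIs in normal diet DTR and 357 in normal diet WT, a log2 ratio of -0.76 (-1.11 to -0.43) that passed 2-fold, at -1.62, in cells with no adipocyte gene. Aplnr, the apelin receptor, had 208 CPM (179 to 241) in DTR and 109 (95.2 to 125) in WT. Junction and barrier genes had medians of 0.12 and -0.01, and caveolae and transcytosis genes -0.09 and 0.19, with none past 2-fold. Klf2, the flow-responsive transcription factor, had 646 CPM (594 to 702) in normal diet DTR and 1062 (1017 to 1109) in normal diet WT. Immediate early and heat shock genes, which tissue dissociation can raise, had medians of 0.02 and -0.00 for genotype and -0.00 and 0.08 for diet, with none of 19 and 10 past 2-fold in either.

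**Figure D4:**
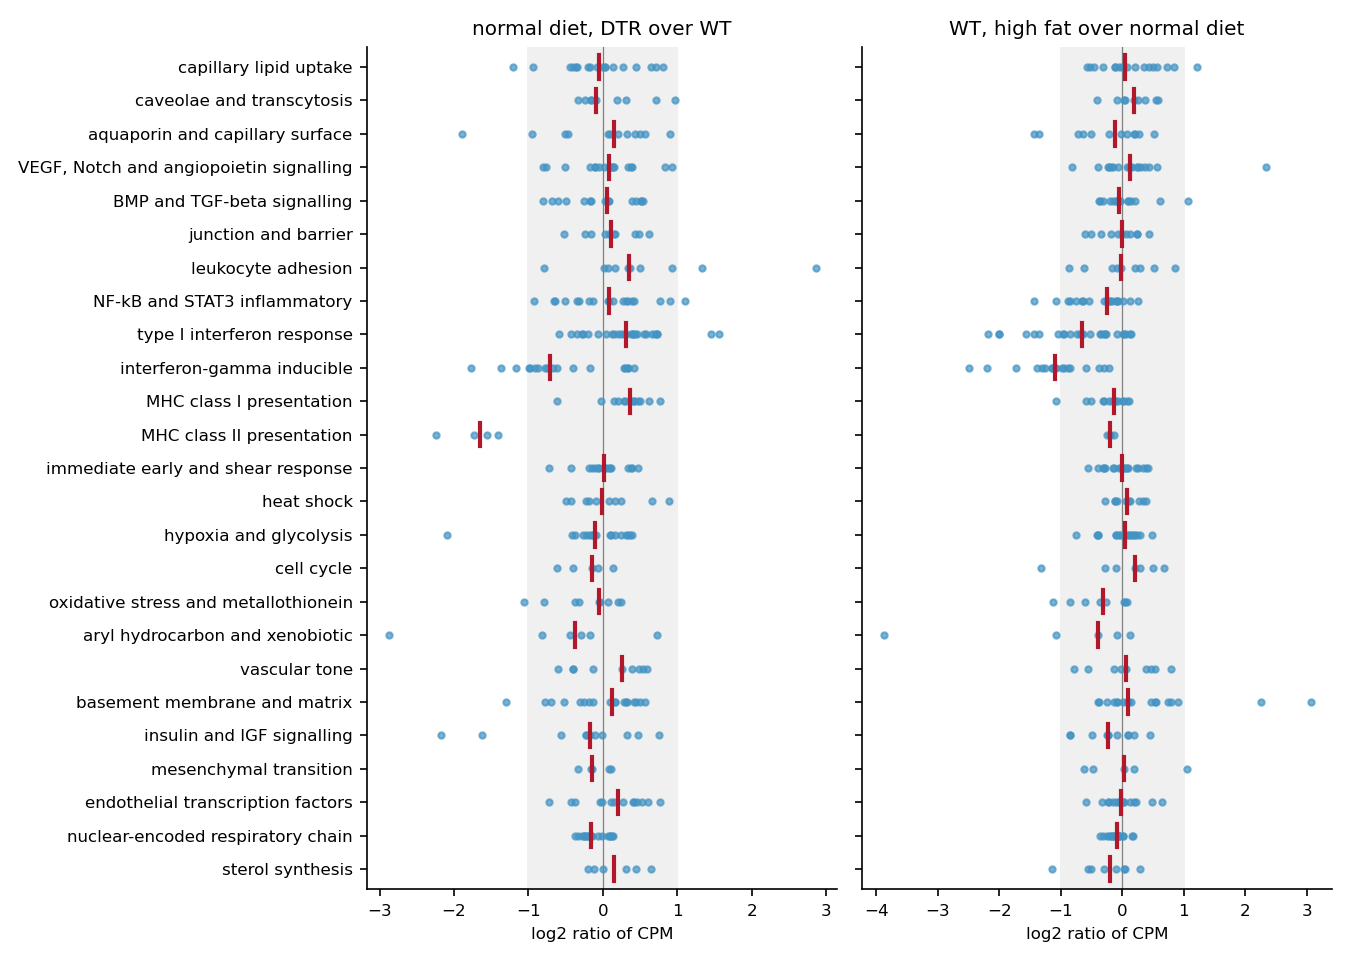
Log2 ratios of the measured genes of 25 lists in capillary cells, DTR over WT on the normal diet (left) and high fat over normal diet in WT (right); blue points are genes, red bars list medians and the grey band less than 2-fold. The interferon-gamma inducible medians lie at -0.71 (left) and -1.09 (right), and the MHC class II median, over 4 genes, at -1.65 on the left.

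Several of these genes had ratios of the same sign in other cells of the normal diet libraries. In arterial-gated cells, 34 in DTR and 52 in WT, DTR over WT came to a log2 ratio of 3.03 (2.08 to 4.11) for Lrg1, 1.38 (0.57 to 2.22) for Inhbb, -1.86 (-2.65 to -1.16) for Timp4 and -1.57 (-2.04 to -1.13) for Irf1. In endothelial-gated cells with 3 or more adipocyte genes they were 2.74 (2.47 to 3.02), 1.65 (1.22 to 2.07), -1.40 (-1.70 to -1.12) and -1.06 (-1.32 to -0.81). Lrg1 was also higher in immune cells, at 13.8 CPM in DTR and 2.35 CPM in WT. In fibroblast-gated cells, where Timp4 was too low to measure, Inhbb had a ratio of 0.36 (0.18 to 0.55), Irf1 -0.51 (-0.57 to -0.45) and Cxcl10 2.09 (2.03 to 2.14). In capillary cells Cxcl10 had a ratio of -0.998 (-1.29 to -0.72), which came to 0.03 in cells with no adipocyte gene and to 0.50 with a Gpihbp1 limit of 1 UMI. The difference between the cell classes was not tested.

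**Figure D5:**
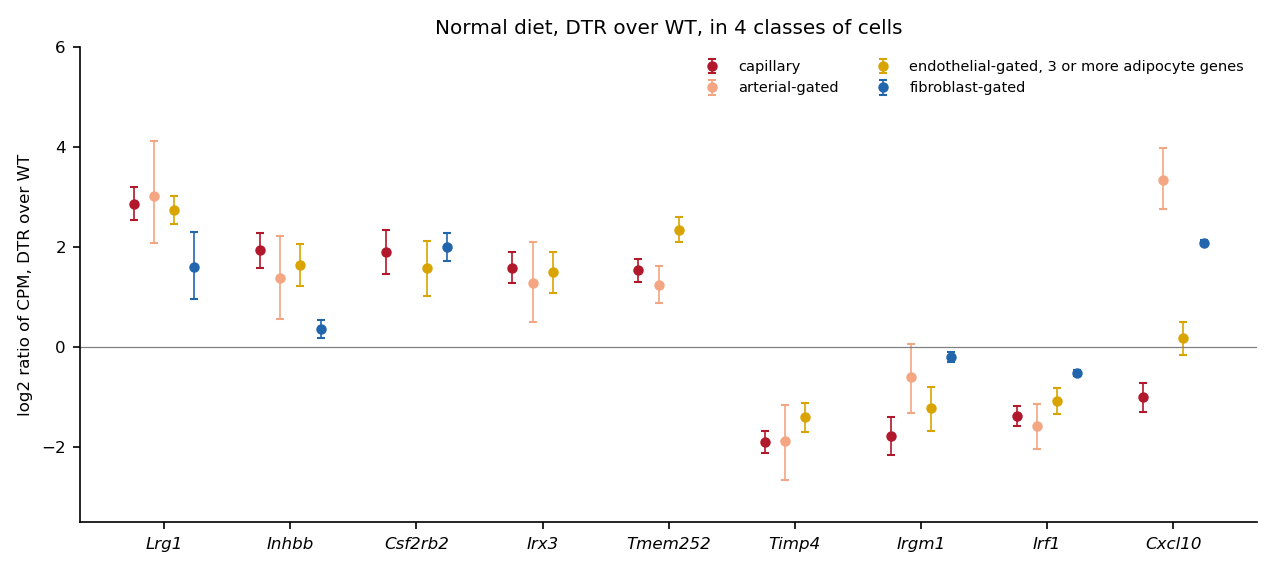
Log2 ratio of DTR over WT on the normal diet for 9 genes in capillary (red), arterial-gated (orange), adipocyte gene-carrying endothelial-gated (yellow) and fibroblast-gated cells (blue), with 95% counting intervals; a class with under 50 UMIs of a gene has no point. Lrg1 lies above 0 and Timp4 and Irf1 below 0 in every class plotted, while Cxcl10 is below 0 in capillary cells and above 0 in fibroblast-gated ones.

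Capillary cells differed from the arterial-gated and venous-gated cells of the same libraries in Car4, the membrane carbonic anhydrase, and in Chchd10, a mitochondrial protein, among the 15 genes with the highest smallest ratio over 3 libraries. Car4 had 907 CPM in capillary, 334 in arterial-gated and 150 in venous-gated cells of high fat WT. In normal diet DTR it had 734, 252 and 270 CPM, and in normal diet WT 637, 125 and 128 CPM, in that class order. Chchd10 had 353 CPM in capillary cells of normal diet WT, against 32.7 in arterial-gated and 14.3 in venous-gated cells. The second of the 15 by this ratio was Hbb-bt, a haemoglobin gene of red blood cells, and the others included Lims2, an adaptor at integrin adhesions, and Lpar6, a lysophosphatidic acid receptor. Venous-gated cells numbered 41 in all and gave 0 to 58 UMIs per library for these genes, so their levels are loose. The cells were gated and compared on the same counts, so this is a description.

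Among the capillary cells themselves, with counts thinned to 2000 UMIs per cell, haemoglobin genes, transcripts of red blood cells, varied most. Hbb-bs had a mean of 26.1 UMIs and a highest cell of 949 in 356 high fat WT cells, 8.35 and 701 in 218 normal diet DTR cells, and 15.05 and 893 in 460 normal diet WT cells. The fibroblast gene Dcn had a Fano factor (variance over mean) of 24.9 in high fat WT, 27.4 in normal diet DTR and 31.1 in normal diet WT. The medians over the 4136 genes ranked, which had a mean of at least 0.05 UMIs in each of these libraries, were 1.05, 1.04 and 1.05. Transcripts of other cells were thus unevenly spread over the capillary cells. Of genes known from capillary cells, Fabp4 had Fano factors of 22.8, 16.5 and 16.2 around means of 99.9, 84.7 and 100.3 UMIs, in the same library order. Fabp5 had Fano factors of 15.9, 8.56 and 6.45 around means of 8.02, 3.34 and 3.28 UMIs. The highest factor was thus in the library with the highest mean. A Fano factor can rise with the mean, so this does not show a wider spread relative to the level. Fos, an immediate early gene, had 10.6, 11.3 and 9.75, and Cxcl10 had 6.72, 8.43 and 9.17.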

How the data were processed

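Libraries used the 10x 3′ v3 kit, and the submitters' processing notes name Cell Ranger 3.1.0 and mm10. The authors deposited raw UMI counts per gene and barcode for 31053 genes, pooled over the 4 libraries, and the 32 sample records are 8 sequencing runs of each. From these, capillary cells were selected by the stated rule, UMIs were summed per library and divided by the summed total (CPM), and log2 ratios were given exact conditional binomial intervals, levels exact Poisson intervals and shares exact Clopper-Pearson intervals, all at 95% and for counting error only. A gene was measured at 50 UMIs over both libraries, a library compared at 50 cells, and a ratio called at 2-fold; a count of 0 was set to 3 UMIs. High fat DTR had 11 cells, so both of its gene comparisons were not computed, genes shared by both genotype comparisons could not be named, and rankings planned over 4 libraries used 3. Named genes were, per comparison, up to 4 of each list by size of ratio, the 10 highest and 10 lowest by the interval bound nearest 0, 15 capillary-over-other and 15 most variable genes, and markers; Cd300lg, Cd36, Csf2rb, Cxcl9, Isg15, Rgcc, Tgtp1, Tgtp2 and Ubd fall outside it and were chosen after their values were seen. Members and the 25 gene lists were chosen with earlier results of these data known. One gene of the type I interferon list counts in its totals but is not reported here. Gene positions are from GENCODE on GRCm38 and promoters from RefSeq. Doublets stayed in, and an alternative removed those Scrublet called (0.745% to 1.29% of cells). Software was Python 3.11.15, numpy 2.4.6, scipy 1.17.1, pandas 2.3.3, scanpy 1.11.5 and, for TMM factors only, edgeR 4.0.16 in R 4.3.3. The ratio and its interval were tested on simulated data.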

Additional observations from a re-analysis of the deposited data

Results flagged for a closer look

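Among the named genes, 7 were at least 2-fold different one way in capillary cells and at least 2-fold the other way in arterial-gated or fibroblast-gated cells of the same libraries, and none of these differences was tested. For high fat over normal diet in WT, Pgf had 2.34 in capillary cells and -2.91 in fibroblast-gated cells, and Apod had 3.14 and -1.17, with 1 cell holding 92.9% of the capillary Apod UMIs of high fat WT. The antibody genes Ighm and Igkc had -1.60 and -1.50 in capillary cells, against 2.05 and 2.51 in fibroblast-gated cells. Col6a5, a collagen chain, had 2.88 in capillary cells and -1.21 in arterial-gated cells. For normal diet DTR over WT, Gbp6 had -1.17 in capillary cells and 1.29 in fibroblast-gated cells, and Trf, the iron carrier transferrin, had -2.25 in capillary cells and 3.16 in arterial-gated cells. The capillary ratios of Ighm, Igkc, Gbp6 and Trf came under 2-fold in some alternatives, down to -0.70, -0.70, -0.75 and -0.42. Those of Pgf, Apod and Col6a5 stayed at 2-fold or more in every alternative in which they were measured.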

How the results depend on the processing

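Of 87 named ratios at 2-fold or more, 86 had 1 sign in every alternative in which they were measured, and 51 were at 2-fold or more in every such one. A ratio with too few UMIs in an alternative was skipped there and could not count against it. Of named ratios of any size, 386 were measured with no filter and 248 with at least 200 UMIs. The exception in sign was Hbb-bt for normal diet DTR over WT, at 0.43 in cells with no adipocyte gene. The count of genes at 2-fold or more (214 for genotype, 184 for diet) was 50 and 50 with at least 200 UMIs, 3587 and 3144 with no filter, 93 for genotype in cells with no adipocyte gene and 308 for diet with no limit on adipocyte genes. These settings also change how many genes are measured, and shares were not computed for them. The counts therefore do not compare the extent of difference between settings. The capillary share of endothelial-gated cells, in percent, was 72.8 in high fat WT with 3 UMIs of Gpihbp1 and 63.9 in normal diet DTR with 1. In cells with no adipocyte gene it was 52.2 in high fat WT, 26.8 in normal diet DTR and 11.6 in normal diet WT, and with venous and arterial sums under 2 it was 65.7, 51.3 and 48.6. With no adipocyte limit it was 77.7 in normal diet DTR and 83.3 in normal diet WT, after thinning to 3000 UMIs 87.8 in high fat WT and 62.0 in normal diet WT, and without cells holding markers of another type 72.9 and 49.4. The endothelial-gated share of Ptprc-negative cells was 0.241 in high fat DTR, 14.4 in high fat WT, 15.3 in normal diet DTR and 29.8 in normal diet WT after thinning, 40.5 in normal diet WT with at least 1000 genes, 18.98 in high fat WT with at most 5% mitochondrial UMIs, and 17.99 in high fat WT and 35.4 in normal diet WT without cells holding other markers. Thinning kept only cells with at least 3000 UMIs, so cells were also removed. Capillary cells then numbered 317 in high fat WT, 155 in normal diet DTR and 418 in normal diet WT, against 411, 273 and 524 in the main setting. Effects of the removed cells and of equal depth cannot be told apart, and the causes of these shifts were not tested. The alternatives without an adipocyte limit, without cells holding other markers and without shared barcodes were chosen after seeing the data. The 2 gene comparisons with high fat DTR were not computed, as it had 11 cells. No paired analysis was possible because each group had 1 library. With 1 library per group, differences between mice, sorts or library preparations and the labelled groups cannot be told apart.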

Other observations

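Metabolic and receptor genes not described above also differed between the libraries. Hk2, a hexokinase of glycolysis, had 12 UMIs or 13.9 CPM (7.18 to 24.3) in capillary cells of normal diet DTR, against 116 UMIs or 59.3 CPM (49.0 to 71.1) in normal diet WT, a log2 ratio of -2.09 that ranged from -2.99 to -0.93 over the alternatives. Irs2, an adaptor of the insulin receptor, had 9 UMIs in normal diet DTR and 63 in normal diet WT, at -1.63 and a range of -1.90 to -0.16, whereas Insr, the insulin receptor, had 37.1 CPM (25.4 to 52.3) and 37.3 CPM (29.2 to 46.9) in the same order. Per1, a circadian clock gene, had 51.0 CPM (37.0 to 68.4) in normal diet DTR and 13.3 CPM (8.68 to 19.5) in normal diet WT, and ranged from 1.49 to 2.35.

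In WT, Ahr, the aryl hydrocarbon receptor itself, had 18 UMIs in high fat and 43 in normal diet, a log2 ratio of -1.08 (-1.96 to -0.26). Fasn, fatty acid synthase, had 8.66 CPM (4.85 to 14.3) in high fat WT and 50.6 CPM (41.1 to 61.6) in normal diet WT, and adipocyte transcripts were also lower in high fat WT. Cav1, the coat protein of caveolae, had 1385 CPM (1331 to 1442) in high fat WT and 1071 CPM (1026 to 1118) in normal diet WT, a log2 ratio of 0.37 (0.29 to 0.46).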
